A study of Rattus norvegicus with 5 samples.

Results

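Metallothionein transcripts were followed on 3 probe sets, out of 8740 probe sets for rat transcripts on an Affymetrix RG_U34A oligonucleotide array, in Müller cells of diabetic and normal rats. The probe sets were selected by gene symbol, as all those whose annotation contains Mt1 (also known under its older symbol Mt1a), Mt1m, Mt2A or Mt3. The family itself was chosen from earlier diabetic and normal values of these same arrays, so its differences between the groups are given as a description, without a p-value. Probe set rc_AI176456_at is listed for Mt1m and Mt2A, rc_AI102562_at for Mt1f, Ttr and Mt1, and rc_AA924772_at for Mt3 alone. All 3 were bright enough to enter the fit, in which 6118 probe sets were tested.

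The diabetic group was 1 pool of Müller cells from the retinas of 12 male Sprague-Dawley rats, diabetic for 6 months after streptozotocin and given a little insulin to prevent wasting. That pool was measured on 2 arrays, the second of which is described as a technical replicate. The normal group was 3 arrays of Müller cells from healthy male Sprague-Dawley rats, each array with its own pool of 12 rats. Streptozotocin is toxic to pancreatic beta cells, the source of insulin, and Müller cells are the glia that span the retina. The study asked how prolonged diabetes affects the transcripts of these cells. Because the diabetic arrays share 1 pool, their mean counted as 1 sample against 3, and so few arrays limit how precise any value here can be.

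Metallothioneins are small proteins rich in cysteine that bind zinc and copper and also react with oxidants. Transcription of Mt1 and Mt2A is known to be induced by zinc through the metal-sensing factor MTF-1, and by glucocorticoids, inflammatory cytokines and oxidative stress. Mt3 is the form found mainly in the nervous system and is known to be much less inducible. In the retina the family is known from glia, Müller cells among them, as well as from the pigment epithelium.

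The probe set of Mt1m and Mt2A stood higher in the diabetic cells than on every normal array. Its deposited signal was 2285.3 and 2631.8 on diabetic arrays 1 and 2, against 248.4, 308.0 and 939.7 on normal arrays 1, 2 and 3. After quantile normalisation, which gives all arrays the same distribution of intensities, it was 2096 and 2395 on the diabetic arrays, against 467, 628 and 525 on the normal arrays. The lowest diabetic value was thus well above the highest normal one on either scale. The log2 mean was 11.13 in the diabetic pool and 9.07 ± 0.22 in the normal pools (SD, n = 3), a log2 difference of 2.06 (SE 0.27 from limma) and a ratio of 4.18. Taken pair by pair, the diabetic arrays lay 3.34 to 5.13 times above the normal arrays on the normalised scale, while the diabetic arrays differed from each other by only 0.19 on the log2 scale and the normal arrays spanned 0.43. Among all tested probe sets this was the difference of rank 16 from the top. Of the 311 others that were at least as bright, 1 had a larger difference, AF028784mRNA#1_s_at, a probe set with no symbol in the annotation used (log2 difference 2.15), looked up after its value was seen.

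The second probe set, rc_AI102562_at, was also higher on both diabetic arrays, by a smaller margin. Mt1 encodes the widely expressed metallothionein-1. The deposited signal was 1997.7 and 2172.1 on the diabetic arrays, against 414.4, 602.5 and 1449.5 on normal arrays 1, 2 and 3. Normalised, it was 1861 and 1899 on the diabetic arrays, against 801, 1170 and 810 on the normal arrays. Again neither diabetic array reached down to the normal range, and normal array 2 was the closest. The log2 mean was 10.88 in the diabetic pool and 9.83 ± 0.31 in the normal pools (SD, n = 3), a log2 difference of 1.04 (SE 0.31, limma) and a ratio of 2.06. The pairs of arrays gave ratios of 1.59 to 2.37, and the diabetic arrays differed by 0.03 on the log2 scale.

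Because rc_AI102562_at is listed for Ttr too, the probe sets of Ttr alone were read beside it. Ttr encodes transthyretin, the carrier of thyroid hormone and, with its binding partner, of retinol. On rc_AA945169_g_at Ttr had 201 and 240 on the diabetic arrays, against 97.0, 130 and 50.3 on normal arrays 1, 2 and 3 (log2 difference 1.35, SE 0.61). On rc_AA945169_at it had 140 and 160 on the diabetic arrays, against 114, 119 and 80.9 on the normal arrays (0.54, SE 0.43). Both Ttr probe sets were therefore also higher on the diabetic arrays, and how much of the signal of rc_AI102562_at comes from each listed transcript was not tested. RefSeq annotates Mt1m as a pseudogene on chromosome 20 and places Mt1f on chromosome X, away from the Mt1 and Mt2A genes. Metallothionein transcripts are known to be closely alike in sequence, and no probe sequences were at hand. The signal of these 2 probe sets was therefore not divided among Mt1, Mt2A and their copies.

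Mt3 showed no separation between the groups. Its probe set rc_AA924772_at gave deposited signals of 533.9 and 801.1 on the diabetic arrays, against 363.2, 287.5 and 1172.8 on normal arrays 1, 2 and 3. Normalised, it was 499.9 and 711 on the diabetic arrays, against 703, 599 and 652 on the normal arrays. Diabetic array 1 was the lowest of the 5 and diabetic array 2 the highest, so the repeat of 1 pool enclosed all normal pools. The log2 mean was 9.22 in the diabetic pool and 9.34 ± 0.12 in the normal pools (SD, n = 3), and the log2 difference of -0.12 (SE 0.25, limma) was smaller than its error. Its sign depended on single arrays and on scaling. The difference was 0.12 without diabetic array 1, -0.39 without diabetic array 2 and 0.40 with the deposited values left unscaled, a setting under which the median of all tested probe sets also moved, to 0.47.

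**Figure D1:**
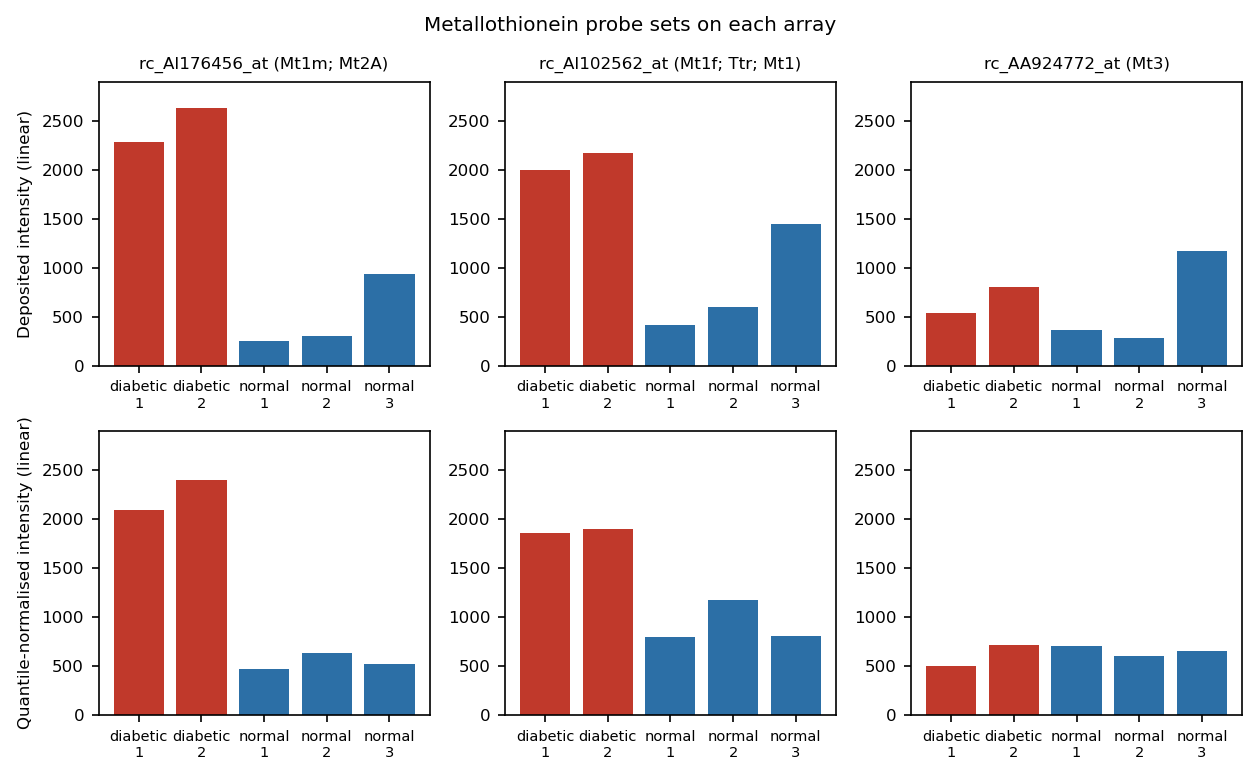
Signal of the 3 metallothionein probe sets on each array, as deposited (top row) and after quantile normalisation (bottom row); each bar is 1 array, red for diabetic and blue for normal, on linear axes from 0. For rc_AI176456_at the normalised diabetic values of 2096 and 2395 stand above all normal values, for rc_AI102562_at both diabetic values do so by less, and for Mt3 the diabetic values of 499.9 and 711 enclose the normal ones.

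No scaling of a whole array can alter the position of a probe set within its own array. Quantile normalisation works from that position, so the percentiles restate the normalised values and are not a further check. Probe set rc_AI176456_at lay at percentile 98.5 and 98.7 of the deposited signals on the diabetic arrays, against 90.4, 93.0 and 91.5 on normal arrays 1, 2 and 3. Probe set rc_AI102562_at lay at percentile 98.2 on both diabetic arrays, against 94.6, 96.6 and 94.7 on the normal arrays. Mt3 lay at percentile 91.0 and 93.9 on the diabetic arrays, against 93.8, 92.6 and 93.2 on the normal arrays. All 3 probe sets were thus already among the brighter ones in normal cells, and the first 2 stood further up on the diabetic arrays.

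The ratio of 2 probe sets on the same array is likewise free of scaling and shows whether they differed unequally between the groups. The log2 ratio of rc_AI176456_at to rc_AA924772_at was 2.10 and 1.72 on the diabetic arrays, against -0.55, 0.10 and -0.32 on normal arrays 1, 2 and 3, a difference in means of 2.16. The log2 ratio of rc_AI102562_at to rc_AA924772_at was 1.90 and 1.44 on the diabetic arrays, against 0.19, 1.07 and 0.31 on the normal arrays, a difference of 1.15. The groups did not overlap in either ratio, so both probe sets stood higher relative to Mt3 in the diabetic cells. How often other probe sets do so was not counted. Since Mt3 differed little between the groups, these ratios largely restate the differences given above and are not a further check. The log2 ratio of rc_AI176456_at to rc_AI102562_at was 0.19 and 0.28 on the diabetic arrays, against -0.74, -0.97 and -0.63 on the normal arrays, so the first of these stood higher relative to the second too, by 1.01.

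These differences are read against the array as a whole. Limma, with Benjamini-Hochberg adjustment over all 6118 probe sets, called 0 of them (0%) at a threshold of 0.05, the metallothioneins included, and its smallest adjusted p was 0.495. Without adjustment, 98 probe sets or 1.6% passed that threshold. For 2 of the 3 metallothionein probe sets each diabetic array exceeded every normal array, beside 9.53% of all tested probe sets, and for none of the 3 was each diabetic array below every normal one, beside 7.01%. A log2 difference of at least 1 was reached by the same 2 of 3, beside 2.22% of all tested probe sets. Since the family was proposed with these values in view, nothing is read from those counts.

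**Figure D2:**
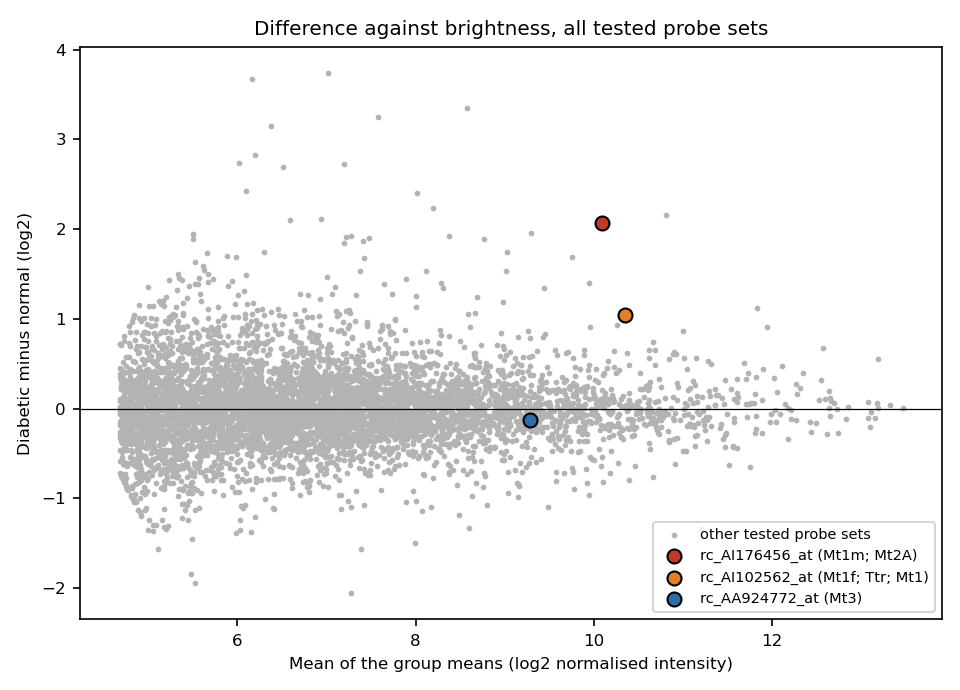
Log2 difference, diabetic minus normal, against mean log2 intensity for all 6118 tested probe sets (grey points), with the 3 metallothionein probe sets in colour. The probe set of Mt1m and Mt2A (2.06) and that of Mt1f, Ttr and Mt1 (1.04) stand above most probe sets as bright as themselves, while Mt3 (-0.12) lies in the middle of the cloud.

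The arrays carried differences of their own. Median deposited signal was 62.1 and 73.1 on the diabetic arrays and 27.9 to 91.3 on the normal arrays. Diabetic array 2 and normal array 3 shared a processing day and chip lot, the experiment records of normal arrays 1 and 2 each named another day and lot, and that of diabetic array 1 named none. Between the 2 arrays of the shared day and lot the log2 difference was 2.14 for rc_AI176456_at, 1.22 for rc_AI102562_at and 0.12 for Mt3. Actin signal at the 3' end over that at the 5' end, a gauge of RNA integrity, was 1.76 and 2.55 on the diabetic arrays, against 2.61, 1.52 and 1.46 on normal arrays 1, 2 and 3. The same quotient for Gapdh ordered the arrays otherwise. It was 1.11 and 1.35 on the diabetic arrays, against 1.16, 1.24 and 1.03 on the normal arrays. With diabetic array 1 and normal arrays 2 and 3 alone, where the actin quotient was under 2, the differences were 1.87, 0.92 and -0.34. The first 2 probe sets thus stood higher on the diabetic array in both comparisons. Each comparison holds only 1 diabetic array, and the choice by actin ratio was made after the data were seen. Whether processing day, lot or RNA integrity had a part in the differences was not tested.

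**Figure D3:**
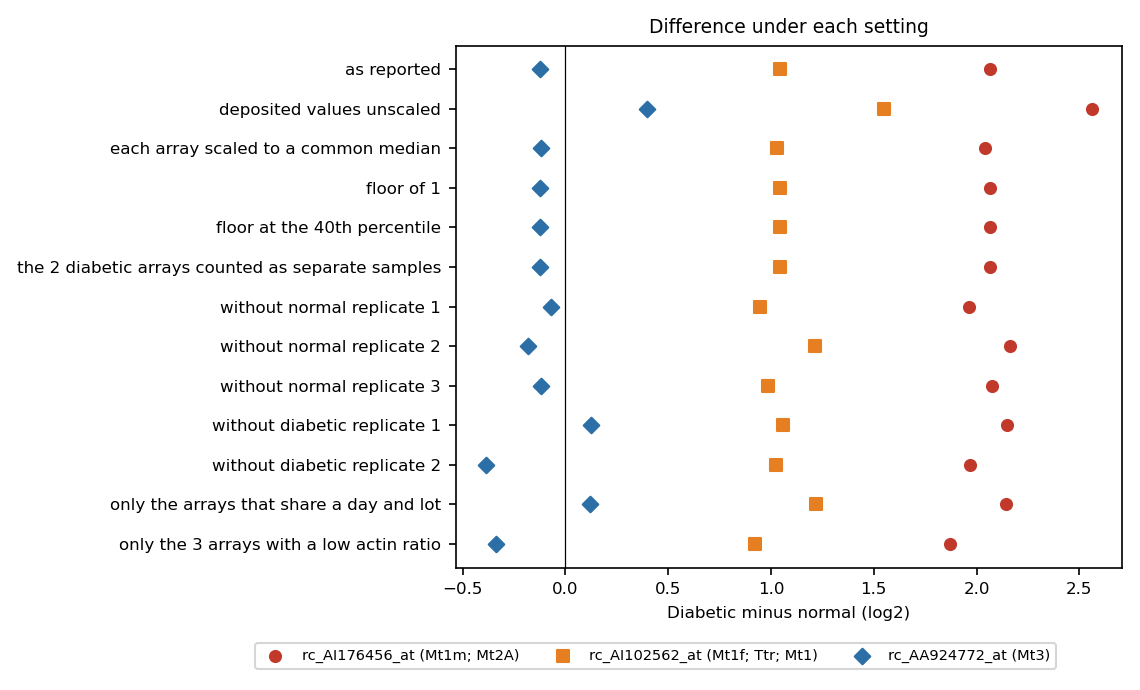
Log2 difference, diabetic minus normal, of each metallothionein probe set (horizontal axis) under each way of scaling, flooring or choosing arrays (vertical axis). Probe set rc_AI176456_at stays between 1.87 and 2.56 and rc_AI102562_at between 0.92 and 1.55, whereas Mt3 falls on either side of 0.

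Genes with the most similar profile were sought for each metallothionein probe set whose log2 values spanned more than 1 over the 5 arrays, which left out Mt3. Likeness was the root-mean-square difference between log2 profiles, each centred on its own mean over the 5 arrays, so a smaller value is a closer match. Closest to rc_AI176456_at was C1s, which encodes a protease of the first complement component, at 0.11. It had 269 and 243 on the diabetic arrays, against 51.0, 67.8 and 59.5 on normal arrays 1, 2 and 3. Next came Sst, the neuropeptide somatostatin, at 0.13. It was dim, with 83.3 and 94.3 on the diabetic arrays, against 22.7 and 27.1 on normal arrays 1 and 2. On normal array 3 it sat on the floor of 20 set for low signals, so its normal values all lay at or near that floor. Then followed Cebpd, a transcription factor of the acute-phase response, at 0.16, with 1138 and 1343 on the diabetic arrays against 317, 396 and 258 on the normal arrays. The other metallothionein probe sets were farther off, at 0.51 for rc_AI102562_at and 1.10 for Mt3.

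For rc_AI102562_at the closest genes were Bgn, the matrix proteoglycan biglycan, at 0.06, Kcnd2, a voltage-gated potassium channel subunit, at 0.09, and Prx, the myelin protein periaxin, at 0.10. All were dim. Bgn had 43.3 and 44.8 on the diabetic arrays, against 26.1 on normal array 2 and the floor of 20 on normal arrays 1 and 3. Kcnd2 had 49.9 and 55.9 on the diabetic arrays, against 32.4 on normal array 2 and the same floor on the other normal arrays. In each of the profiles named for rc_AI102562_at, normal array 2 was the highest normal array, as it was for the metallothionein probe set itself. With 5 arrays such likeness describes these arrays and says nothing on shared control.

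**Figure D4:**
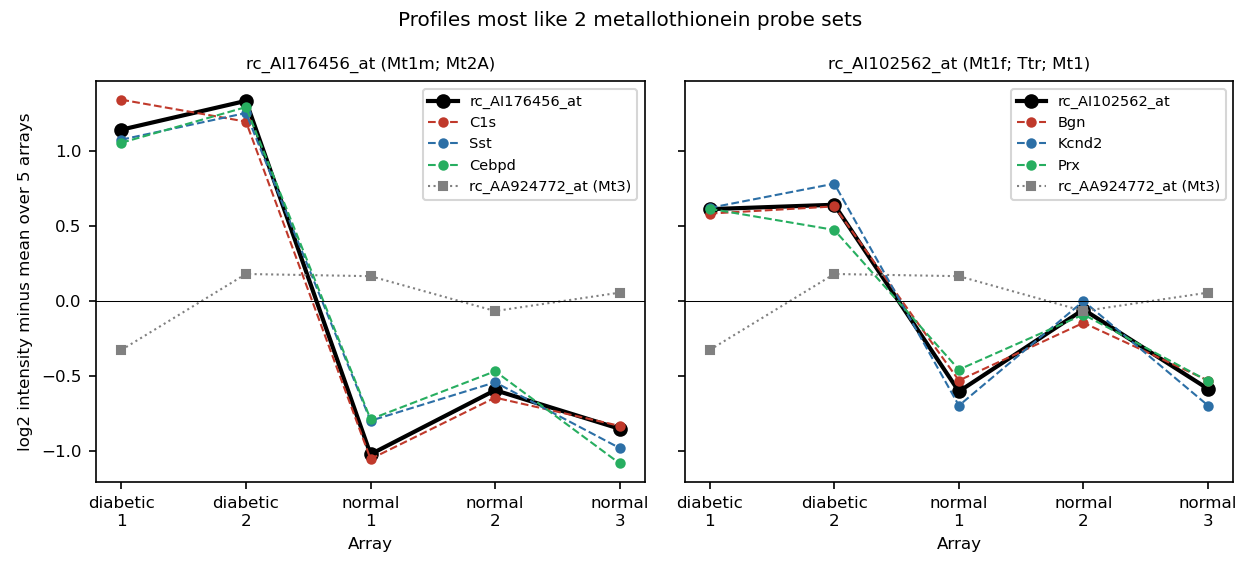
Log2 intensity on each array minus the mean over the 5 arrays for rc_AI176456_at (left, black) and rc_AI102562_at (right, black), the 3 genes closest to each (dashed, coloured) and Mt3 (dotted, grey). The dashed lines follow the black ones within a root-mean-square difference of 0.06 to 0.16, and Mt3 does not.

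The regulators of the family gave few measurements. Of 18 listed genes of zinc transport and the MTF-1 pathway only 3 had a probe set with 1 symbol and 2 were tested. The zinc transporter genes Slc30a2 and Slc30a4 differed by -0.46 (SE 0.58) and -0.07 (SE 0.52) on the log2 scale, each within its error. Slc30a1, the zinc exporter that MTF-1 is known to induce, was too dim to be tested: 2 of its 5 arrays, diabetic array 2 and normal array 1, were at the floor, and diabetic array 1 was the highest at 5.29 on the log2 scale. In the copper list 2 of 11 genes were tested. Cp, encoding the copper-carrying ferroxidase ceruloplasmin, had 1468 and 1636 on the diabetic arrays, against 594, 431 and 434 on normal arrays 1, 2 and 3 (log2 difference 1.69, SE 0.30), though its other probe sets gave 0.36 and 0.67. Sod1, the copper and zinc superoxide dismutase, differed by 0.13 (SE 0.32) on its brightest probe set and by -0.28 and -0.14 on others.

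Of the genes tied to glucocorticoid action 5 of 13 were tested, with 3 above and 2 below normal, beside 48.8% above over all tested probe sets. Their median difference was 0.08, beside a median of -0.01 over all tested probe sets. Nr3c1, the glucocorticoid receptor, had 66.9 and 66.6 on the diabetic arrays, against 66.9, 54.0 and 69.6 on normal arrays 1, 2 and 3 (0.08, SE 0.46). Its other tested probe set gave 0.55, with log2 values of 6.34 and 6.18 on the diabetic arrays, against 5.15, 5.86 and 6.14 on the normal arrays. Dusp1, a phosphatase of the stress-activated kinases, had 464 and 391 on the diabetic arrays, against 625, 1148 and 620 on the normal arrays (-0.84, SE 0.42), and its other probe sets gave -1.19 and -0.94. Sgk1, a kinase induced by steroids, differed by 0.73 (SE 0.52), and Glul, the glutamine synthetase of Müller cells, by -0.21 (SE 0.33), with its other probe sets between -0.27 and 0.10. The named genes of this list therefore lay on both sides of normal.

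Interleukin-6 type cytokines and Stat3 are known inducers of Mt1 and Mt2A in liver. Of 13 tested genes of 17 listed, 9 lay above and 4 below normal, with a median difference of 0.33, and for 5 both diabetic arrays were above all normal arrays. Over all tested probe sets 48.8% lay above normal, and 9.53% did so without overlap. The log2 difference was 1.96 (SE 0.33) for Cebpd, whose other probe sets gave 0.21 and 1.40. It was -1.32 (SE 0.75) for Lif, the leukemia inhibitory factor, with diabetic array 2 at the floor. Stat3, the transcription factor itself, had 192 and 52.6 on the diabetic arrays, against 77.7, 37.9 and 53.8 on normal arrays 1, 2 and 3. Diabetic array 2 lay within the normal range, the difference was 0.89 (SE 0.57), and its other probe set gave 0.43.

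Among genes of the Nrf2 pathway and oxidative stress 13 of 18 were tested, 9 above and 4 below normal, with a median difference of 0.13. Nfe2l2, encoding the factor Nrf2, had 218 and 159 on the diabetic arrays, against 62.1, 73.1 and 111 on normal arrays 1, 2 and 3 (log2 difference 1.22, SE 0.49). The other probe set of Nfe2l2 gave only 0.31. Catalase, Cat, which breaks down hydrogen peroxide, differed by 0.55 (SE 0.51) on its brightest probe set and by -0.26 and 0.05 on others. Nqo1, a quinone reductase and known Nrf2 target, differed by -0.50 (SE 0.56). These counts are read beside the same 48.8% above normal over all tested probe sets.

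Cell type markers were read beside the family, since a preparation of retinal cells can hold other cells. Of 10 listed Müller cell markers 7 were tested, 1 above and 6 below normal (48.8% above over all tested probe sets). Rlbp1, Gfap and Dkk3 had no probe set with 1 symbol in the annotation used, so this count says nothing on them. Glul was among the brightest, with 8290 and 7984 on the diabetic arrays against 7532, 9373 and 11797 on normal arrays 1, 2 and 3. The summed normalised signal of the 7 tested markers was 26681 to 28683 on the diabetic arrays and 26644 to 34638 on the normal arrays. All 3 tested photoreceptor markers, Sag, Cnga1 and Opn1sw, were above normal on both diabetic arrays, with a sum of 6298 to 6634 on the diabetic arrays against 1700 to 4239 on the normal arrays; the share without overlap over all tested probe sets was 9.53%. All 6 tested markers of microglia and other leukocytes lay above normal on their brightest probe sets (48.8% over all tested probe sets). For 5 of them the arrays did not overlap (9.53% over all). Other probe sets gave -0.10 and 0.64 for Aif1 and 1.42 for Cd74. The sum of the 6 was 1936 to 2082 on the diabetic arrays against 1325 to 1649 on the normal arrays. Most of this sum was Ctss, with 1358 and 1548 on the diabetic arrays, against 952, 1259 and 1036 on normal arrays 1, 2 and 3. Among these markers Coro1a, an actin-binding protein of leukocytes, had the largest difference, 1.43 (SE 0.51). It was dim, with 75.0 and 51.2 on the diabetic arrays, against 30.3 on normal array 3 and the floor of 20 on normal arrays 1 and 2. Of the 6 tested markers of inner retinal neurons 2 lay above normal (48.8% over all tested probe sets). The sum of the 6 was 1330 to 1610 on the diabetic arrays and 992 to 1507 on the normal arrays. Of 4 listed markers of the pigment epithelium, a known site of metallothionein, only 1 had a probe set with 1 symbol. That marker was too dim to be tested, so nothing is said here on this cell type. On their brightest probe sets the photoreceptor and leukocyte markers lay above normal, as the 2 metallothionein probe sets did. The part of these markers in the result was not tested. In pooled cells a shift in the number of cells of a type and a shift in RNA per cell cannot be told apart.

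The upstream sequences of Mt1, Mt2A and Mt3 are shown because probe sets listed for the first 2 were both higher on the diabetic arrays while that of Mt3 was not. In the RefSeq annotation of rat assembly GRCr8 the genes Mt1, Mt2A, Mt3 and Mt4 are direct neighbours on chromosome 19, all transcribed from the minus strand. Each line gives the 250 bases before the annotated transcript start, 5′ to 3′ on the strand of the gene, with matches to the core of the metal response element, the binding site of MTF-1, in capitals. The core was searched as TGCACNC and TGCGCNC on both strands.
Mt1: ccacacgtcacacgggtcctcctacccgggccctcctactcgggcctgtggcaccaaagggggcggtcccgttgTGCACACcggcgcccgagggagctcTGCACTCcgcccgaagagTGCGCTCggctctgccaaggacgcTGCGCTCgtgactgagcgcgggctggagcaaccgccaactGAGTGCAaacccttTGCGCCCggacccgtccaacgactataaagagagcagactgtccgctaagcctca
Mt2A: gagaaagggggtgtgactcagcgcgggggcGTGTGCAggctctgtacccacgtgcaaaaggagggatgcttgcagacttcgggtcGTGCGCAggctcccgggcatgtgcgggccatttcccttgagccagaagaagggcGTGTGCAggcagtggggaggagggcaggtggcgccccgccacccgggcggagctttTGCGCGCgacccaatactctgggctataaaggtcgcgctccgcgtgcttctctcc
Mt3: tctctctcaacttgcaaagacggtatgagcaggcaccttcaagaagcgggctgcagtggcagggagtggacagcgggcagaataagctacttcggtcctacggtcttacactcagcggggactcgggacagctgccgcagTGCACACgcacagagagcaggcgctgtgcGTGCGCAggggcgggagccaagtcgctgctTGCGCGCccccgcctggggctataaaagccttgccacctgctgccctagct
These windows lie at chr19:10832976-10833225 for Mt1, chr19:10838709-10838958 for Mt2A and chr19:10856081-10856330 for Mt3, all on the minus strand of GRCr8.

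The core matched 6 times upstream of Mt1, 4 times upstream of Mt2A and 3 times upstream of Mt3. Of 33469 rat promoter windows of the same length, 20.6% held at least 1 match, 0.0269% held at least 6, 0.266% at least 4 and 1.17% at least 3. Upstream of Mt4, which no probe set selected here is listed for, there was 1 match, and upstream of Mt1f on chromosome X there was none. The match nearest to the start began 55 bases before it in both Mt1 and Mt2A, and 51 bases before it in Mt3. A TATAAA element followed at 32, 31 and 31 bases before the start, a motif that 8.06% of windows held on the strand of the gene.

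Other motifs were searched for on both strands. The core of the antioxidant response element, the site of Nrf2, searched as TGACNNNGC, matched once upstream of Mt1 and once upstream of Mt2A and not upstream of Mt3, beside 10.1% of all windows with a match. Neither of these matches overlapped a metal response core. The Stat-type motif TTCNNNGAA and the short glucocorticoid receptor motif TGTTCT matched in none of the 3 windows, beside 7.67% and 17.5% of all windows. A match is a run of letters and not a shown binding site, and sites outside these windows were not searched.

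**Figure D5:**
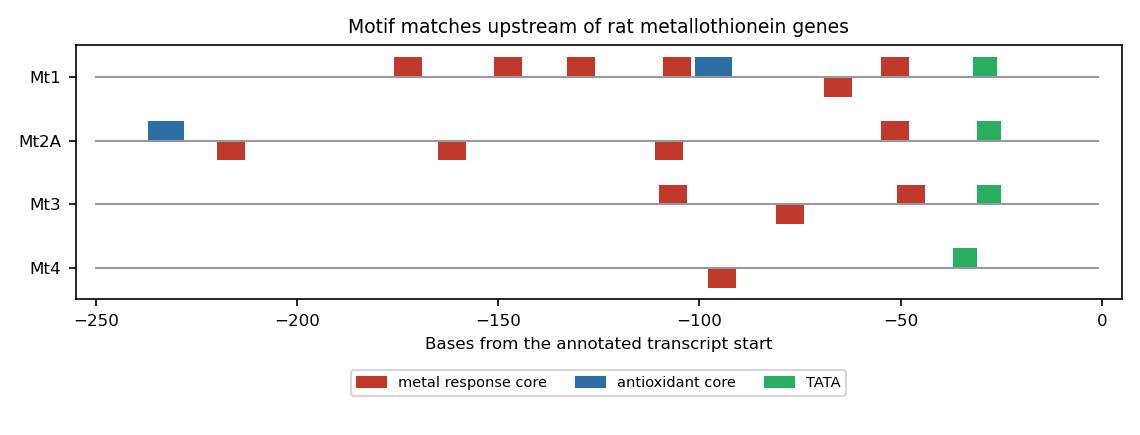
Motif matches in the 250 bases before the annotated start of each rat metallothionein gene of chromosome 19, with matches on the strand of the gene above the line and on the opposite strand below it. Metal response cores (red) number 6 for Mt1, 4 for Mt2A, 3 for Mt3 and 1 for Mt4; each gene has 1 TATAAA element (green), and Mt1 and Mt2A each have 1 antioxidant core (blue).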

How the data were processed

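Linear signal intensities per probe set, as deposited by the authors, were used for 5 arrays of the RG_U34A chip, so named per the file headers. How the signals were summarised and scaled, and with which software, is not given in the sources used here. Other experiment-record entries, text per the file headers, only placed arrays into processing days and lots. The intensity values were quantile normalised, floored at the larger of 20 and the 20th percentile (the floor was 20) and converted to log2; 59 control probe sets were left out, then the dimmest 30%. The diabetic arrays were averaged into 1 pool and compared with the 3 normal pools (limma 3.58.1, R 4.3.3, lmFit, eBayes with trend, Benjamini-Hochberg over all tested probe sets, 2 residual and 3.54 prior degrees of freedom). Only the normal pools, biological replicates per the labels, inform the spread.

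Members, gene lists, named genes and alternatives were chosen with earlier results of these data known. Named were all members, per pathway list the 3 genes with the largest difference and the regulators Mtf1, Slc30a1, Nr3c1, Stat3 and Nfe2l2 where measured, and the 3 genes closest in profile to each member spanning more than 1. Where a gene had several tested probe sets with 1 symbol, the brightest stood for it, named from the platform annotation. Markers covered Müller, photoreceptor, neuronal, leukocyte, endothelial, pigment epithelial and erythrocyte cells. Both tested endothelial markers lay below normal and both erythrocyte markers above, beside 48.8% above over all tested probe sets. Each of these differences was smaller than its SE. Tested on simulated data (20 sets, 6118 probe sets, 200 changed), the limma step recovered 0.0746%, 3.21% and 24.6% of 2-, 4- and 8-fold changes. It made 20.15 calls per simulated set on average, 1.7 of them false. At such recovery a count of 0 leaves room for single changes of these sizes. Alternatives covered scaling, floor, filter, moderation, the replicate unit and the arrays used. Figures used matplotlib 3.10.9.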

Additional observations from a re-analysis of the deposited data

How the results depend on the processing

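The log2 difference kept its direction under all settings run for rc_AI176456_at and rc_AI102562_at. Without scaling the differences were larger, 2.56 and 1.55, with the median of all tested probe sets at 0.47; scaled to a common median they were 2.04 and 1.03. Leaving out each array in turn gave 1.96 to 2.16 for rc_AI176456_at and 0.95 to 1.21 for rc_AI102562_at. For Mt3 on rc_AA924772_at the same gave -0.39 to 0.12, with 0.12 without diabetic array 1; the difference was 0.40 unscaled and 0.12 between the arrays of the shared day and lot. On diabetic array 1 with normal arrays 2 and 3, whose actin ratio was low, a setting added after seeing the data, it was -0.34. Every diabetic array exceeded every normal array for 2 metallothionein probe sets, or for 3 where diabetic array 1 was absent. The number of probe sets past limma's adjusted threshold over the array was 0 in the fit as reported (98 at an unadjusted p under 0.05) and 0 with each array left out. It was 13 with the diabetic arrays as separate samples, which counts the technical repeat as independent. It was 170 without the filter on dim probe sets; 162 of these had all normal arrays at the floor and 0 were metallothioneins. No paired analysis was possible because the diabetic group holds only 1 pool. No gene other than the metallothioneins was recomputed under the alternatives. With 1 diabetic pool, the spread between diabetic pools is unknown.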
